A study of Mus musculus with 3 samples.

Results

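Genes of cholesterol synthesis, transport and turnover were described in RNA bound to tagged ribosomes from the deep nuclei of the mouse cerebellum. The genes were a list of 31 symbols named for their place in the pathway, with no measured value in the rule, and all 31 were found among the 32531 gene rows of the files. Of these, 17 encode enzymes of synthesis, 5 encode regulators, and 9 act in uptake, lysosomal export, release to lipoproteins, turnover or storage. The list does not hold every gene of the pathway. The 3 libraries form a single group, adult C57BL/6J mice of the line NIDA113 with the transgene Htr6-EGFP/Rpl10a. In this line the ribosomal protein L10a is fused to EGFP, and the transgene is named for Htr6, which encodes a serotonin receptor, so that ribosomes of the cells that express it can be pulled down with anti-EGFP antibodies and their RNA sequenced (translating ribosome affinity purification). Age beyond adult, sex and the number of animals per library are not in the labels, and neither is a statement that the libraries came from separate animals, so the spread between them may be partly technical. Unpurified tissue RNA was not analysed here. A level is therefore an abundance in the purified RNA, and fewer cells of a type and less RNA per cell cannot be told apart.

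The brain makes its own cholesterol, since lipoproteins of the blood do not cross into it. Cells build the sterol from acetyl units through mevalonate, farnesyl diphosphate, squalene and lanosterol, and the transcription factors SREBP1 and SREBP2 (genes Srebf1 and Srebf2) switch on these enzymes when membrane sterol is low. SCAP escorts the SREBP proteins out of the endoplasmic reticulum and the INSIG proteins hold them there. In the adult brain, astrocytes are known to release cholesterol on apolipoprotein E through ABC transporters, oligodendrocytes put it into myelin, and neurons take up lipoproteins through receptors of the LRP family and remove the excess by the hydroxylase CYP46A1.

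The promoters of the synthesis genes shared a short sequence word that the choice of the list did not use. Windows of 250 bases before to 50 bases after each transcription start were taken from RefSeq (GRCm38.p6) for 26 of the 31 genes, 14 of them synthesis genes. No window was searched for Fdps, Fdft1, Sqle, Npc1 and Abcg1. The word CCAAT, the core of the site known to bind the factor NF-Y, was searched on both strands (ATTGG on the other strand). It stood in at least 1 window of all 14 synthesis genes with a window, and of 7 of the 12 other members with one. Among all genes of the files with a window (17040), 41.9% held it, and among those at 10 CPM or more (counts per 1000000 counts on genes) 42.5% did. The word TCACNCCAC, a form of the sterol regulatory element that SREBP proteins bind, was in the window of Hmgcs1. No other member with a window held it, against 1.46% of all genes with a window. The direct repeat known as DR4, bound by nuclear receptors such as LXR and searched as a perfect repeat on both strands, was in none of the members' windows and in 0.0704% of all genes. A match is a stretch of letters and not a tested site, and a missing match covers only these letters in this window.

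A few of these windows show how the words are placed, with capitals marking each CCAAT or ATTGG and, in Hmgcs1, TCACCCCAC. Hmgcs1 (chr13:119690101-119690400, plus strand) is shown because it held both words, which do not overlap, with the sterol element beginning at -137 from the start site. Mvk (chr5:114444019-114444318, plus strand) is shown as a synthesis gene of very low counts with 5 CCAAT words. Hsd17b7 (chr1:169969156-169969455, minus strand) is shown as a late enzyme with 3, and Cyp46a1 (chr12:108334066-108334365, plus strand), the turnover enzyme, with 1 such word.
Hmgcs1: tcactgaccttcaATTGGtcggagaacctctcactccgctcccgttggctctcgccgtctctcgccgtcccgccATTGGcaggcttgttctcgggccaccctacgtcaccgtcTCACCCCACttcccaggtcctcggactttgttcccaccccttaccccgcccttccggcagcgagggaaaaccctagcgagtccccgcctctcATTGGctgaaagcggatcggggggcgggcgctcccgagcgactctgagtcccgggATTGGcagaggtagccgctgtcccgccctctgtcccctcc
Mvk: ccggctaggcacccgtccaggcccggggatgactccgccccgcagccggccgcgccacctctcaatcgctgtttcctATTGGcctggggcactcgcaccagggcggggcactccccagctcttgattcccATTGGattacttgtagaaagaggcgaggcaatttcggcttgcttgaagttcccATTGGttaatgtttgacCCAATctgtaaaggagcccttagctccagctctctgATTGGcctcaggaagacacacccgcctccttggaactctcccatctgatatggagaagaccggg
Hsd17b7: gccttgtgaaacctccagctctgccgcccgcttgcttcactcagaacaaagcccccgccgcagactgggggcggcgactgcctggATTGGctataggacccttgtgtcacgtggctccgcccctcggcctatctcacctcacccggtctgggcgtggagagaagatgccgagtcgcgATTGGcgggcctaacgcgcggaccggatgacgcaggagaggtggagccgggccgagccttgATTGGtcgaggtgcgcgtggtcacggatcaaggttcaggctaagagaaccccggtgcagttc
Cyp46a1: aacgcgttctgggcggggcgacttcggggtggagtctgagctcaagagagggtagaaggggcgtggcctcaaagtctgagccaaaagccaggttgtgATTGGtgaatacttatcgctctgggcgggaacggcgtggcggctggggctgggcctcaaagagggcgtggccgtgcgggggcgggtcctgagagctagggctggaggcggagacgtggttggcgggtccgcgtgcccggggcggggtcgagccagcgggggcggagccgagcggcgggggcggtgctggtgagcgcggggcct

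Values below are counts of reads per gene in replicates 1, 2 and 3, CPM scaled to the effective library size, and RPKM, which is CPM per kilobase of annotated exon and is the scale on which different genes are compared. The libraries held 7622010 to 8842058 counts on genes, and a gene without reads could still stand at 0.397, 0.34 and 0.385 CPM in replicates 1, 2 and 3 (3 counts, counting error only). All 12 pan-neuronal markers reached 3 counts in every library, and together they made up 18701 to 26493 CPM. The 6 markers of glutamatergic neurons of the deep nuclei summed to 478 to 735 CPM, below the 6 Purkinje cell markers (6011 to 7960 CPM) and the 6 granule cell markers (3116 to 3642 CPM). On the log2(RPKM + 1) scale the medians of these lists were 2.69 ± 0.51, 6.99 ± 0.18 and 6.44 ± 0.33 (SD, n = 3 libraries). Single genes crossed this order. Slc17a6 and Spp1 of the deep nuclei list, at 55.9 and 77.9 RPKM, were above Pcp2 (15.1) and Calb1 (28.7) of the Purkinje list. Both were below Car8, Itpr1, Rgs8 and Dner of that list. They were above Fat2 (51.4) and Etv1 (39.2) of the granule cell list, and below Cbln3, Gabra6, Zic1 and Neurod1. Meis1, Meis2, Tbr1 and Lhx9 of the deep nuclei list were at 0.654 to 6.07 RPKM. The 10 astrocyte and Bergmann glia markers summed to 3454, 3689 and 4017 CPM in replicates 1, 2 and 3, with all 10 counted at least 3 times in each. The 10 oligodendrocyte markers summed to 3136 to 3950 CPM, whereas the 8 microglial markers summed to 19.8 to 37.0 CPM, with C1qa, Aif1 and Trem2 at 0 in every library. Markers of glia and of neurons of the cerebellar cortex were thus counted in all 3 libraries beside those of the labelled deep nuclei.

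Of the 31 genes, 19 had a mean of at least 10 CPM, which 50.9% of the 16071 genes with a count and 25.1% of all gene rows reached. At least 3 counts in every library were seen for 26 of the 31, against 63.7% of genes with a count and 31.5% of all rows. Lrp1 was the one member above 100 CPM, and Tm7sf2 the one below 1 CPM. On the log2(RPKM + 1) scale, the median of the 17 synthesis genes was 1.54 ± 0.46 (SD, n = 3 libraries) and that of the 14 others 3.002 ± 0.45, beside 2.60 ± 0.02 for the 11168 genes that reached 10 counts in 2 libraries. The synthesis median was lower than that of the other members in 3 of 3 libraries, by a log2 difference of -1.46 ± 0.45. With means over the members in place of medians the difference was -0.86, and without scaling by length it was -2.49.

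Synthesis was read in most of its steps, but unevenly. In replicates 1, 2 and 3, 14, 15 and 15 of the 17 synthesis genes had at least 3 counts, and every one of them reached 3 counts in at least 1 library. The summed level of the 17 genes was 349, 455 and 454 CPM. Hmgcs1 and Fdft1 alone took 51.4%, 45.3% and 34.97% of that sum.

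Of the 6 listed genes of the steps up to farnesyl diphosphate, Hmgcs1, the first of them, had the highest RPKM in every library. Mvd came close to it in replicate 3 (12.1 against 12.9 RPKM). Hmgcs1 (ENSMUSG00000093930.2; mm10 chr13:119690379-119708260, plus strand) joins acetoacetyl-CoA and acetyl-CoA to HMG-CoA. It had 808, 749 and 463 counts, or 83.8 ± 23.8 CPM (SD, n = 3). Its RPKM was 23.3, 18.5 and 12.9, lowest in replicate 3, and in every library it lay above the highest value of 23 of the 30 other members. With the length of the longest coding transcript, the lowest Hmgcs1 value (17.2 RPKM) was also below the highest of Sqle (19.2) and Npc1 (18.8). An antisense gene, Gm48342, shares 557 bases with the exons of Hmgcs1, and reads there cannot be told apart without strand. The 3 enzymes that turn mevalonate into isopentenyl diphosphate were low and irregular. Mvk, mevalonate kinase, had 7, 71 and 0 counts. Pmvk, phosphomevalonate kinase, had 5, 11 and 43 counts. Mvd, the decarboxylase that follows, had 0, 7 and 175 counts. Mvk was highest in replicate 2, and Pmvk and Mvd in replicate 3. Idi1, the isomerase that makes dimethylallyl diphosphate, had 6, 99 and 41 counts (5.76 ± 5.24 CPM), and 30.5% of its 50-base words are shared with 5 other genes. Fdps, farnesyl diphosphate synthase, was low but even, with 36, 42 and 44 counts (5.06 ± 0.51 CPM). Its level is uncertain, since 86.4% of the 50-base words of its longest coding transcript also occur in transcripts of 8 other annotated genes, and reads that align in several places were not counted. On the same strand, 1124 of its exon bases also belong to the gene model Gm43738.

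**Figure D1:**
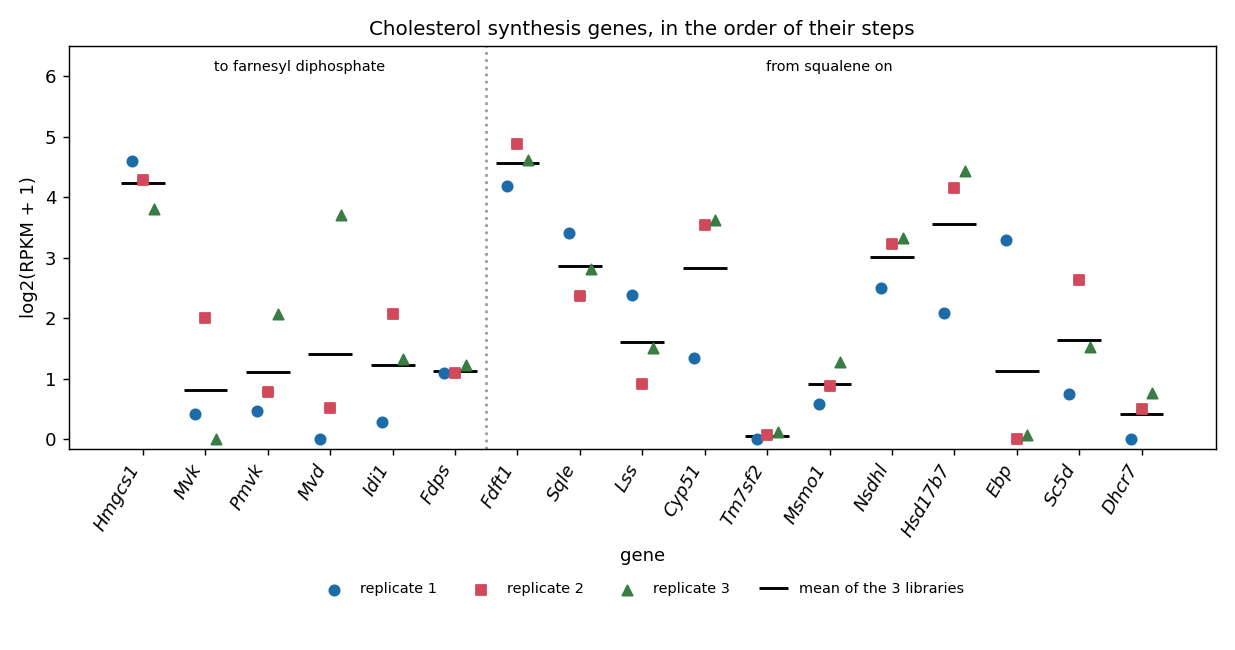
Levels of the 17 synthesis genes in the order of their steps, as log2(RPKM + 1), with 1 symbol per library and a bar at the mean of the 3 libraries. Hmgcs1 and Fdft1 lie highest, while the points of Mvk, Mvd and Ebp are at 0 in 1 library and well above it in another.

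Beyond the branch to other isoprenoids, the enzyme that commits carbon to sterols was the most abundant of the synthesis genes by mean RPKM. Fdft1 (ENSMUSG00000021273.10; mm10 chr14:63145150-63179578, minus strand) encodes squalene synthase. It had 547, 1065 and 775 counts, or 97.6 ± 24.3 CPM (SD, n = 3). Its RPKM of 17.1, 28.6 and 23.5 was above all 3 values of 24 of the other 30 members. With the length of the longest coding transcript, the lowest Fdft1 value (19.6 RPKM) was also below the highest of Apoe (23.1). Fdft1 exceeded Fdps by 3.42 ± 0.35 on the log2(RPKM + 1) scale in 3 of 3 libraries. That difference was 2.53 with the length of the longest coding transcript and takes in the limit on Fdps given above. Fdft1 has limits too, since 30.7% of the 50-base words of its longest coding transcript also occur in transcripts of 2 other genes. The exons of Fdft1 overlap those of Ctsb on the other strand over 774 bases, and reads there cannot be told apart without strand.

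The steps that follow differed in which library they were highest. Sqle, squalene epoxidase, had 401, 204 and 262 counts (36.6 ± 15.2 CPM; SD, n = 3), and Lss, which closes the rings to lanosterol, had 346, 85 and 155 (25.1 ± 18.6 CPM). Both were highest in replicate 1. Cyp51, the lanosterol demethylase, had 51, 415 and 388 counts (34.5 ± 24.1 CPM), lowest in replicate 1. Tm7sf2, a sterol reductase of the next step, had 0, 2 and 3 counts, at or under the limit set by a count of 0. On the same strand, 532 of the exon bases of Tm7sf2 also belong to the protein-coding gene Vps51, so its level is uncertain.

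Of the enzymes that strip methyl groups from the ring, Hsd17b7 had the highest mean, although Nsdhl was above it per length in replicate 1. Hsd17b7, a keto reductase, had 126, 755 and 817 counts (69.1 ± 46.4 CPM; SD, n = 3). Nsdhl, the decarboxylating dehydrogenase of the same complex, had 101, 211 and 200 counts (20.99 ± 6.66 CPM). Msmo1, the methylsterol oxidase, had 23, 46 and 69 counts (5.71 ± 2.94 CPM). All 3 were lowest in replicate 1. In RPKM, Hsd17b7 stood at 3.27, 16.8 and 20.5, Nsdhl at 4.69, 8.39 and 9.00, and Msmo1 at 0.496, 0.850 and 1.44, so Msmo1 was below the other two in every library.

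The last enzymes of the route were irregular between libraries, and the final one was low. Ebp, the sterol isomerase, had 154, 0 and 1 counts. Sc5d, the desaturase, had 25, 222 and 72 counts (12.6 ± 11.3 CPM; SD, n = 3). Dhcr7, the reductase that makes cholesterol from its direct precursor, had 0, 21 and 32 counts (2.16 ± 2.06 CPM). These 3 genes had no library order in common. The median of the 6 steps to farnesyl diphosphate lay below that of the 11 steps from squalene on by a log2 difference of -0.77 ± 0.91, within its SD and of the opposite sign in replicate 3. It was -0.33 without replicate 1 and -1.23 without replicate 3.

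Of the regulators, Insig1 was the highest and the SREBP and SCAP genes were lower. Insig1 (ENSMUSG00000045294.11; mm10 chr5:28071363-28078662, plus strand) retains the SCAP complex and is itself a target of SREBP. It had 967, 638 and 579 counts, or 91.6 ± 31.6 CPM (SD, n = 3). At 41.4, 23.4 and 24.02 RPKM it had the highest mean RPKM of the 31 genes. All its values were above all values of 29 of the other 30, Fdft1 being the exception. This separation depended on the length used. With the length of the longest coding transcript, the lowest Insig1 value was 26.8 RPKM. That was also below Hmgcs1 in replicate 1 (30.9) and Cyp46a1 in replicate 3 (28.5), while the mean of Insig1 was still the highest. Insig2, the paralog not known to be induced by SREBP, had 143, 101 and 514 counts (32.1 ± 29.5 CPM). Insig1 exceeded Insig2 by 2.72, 2.51 and 0.32 on the log2(RPKM + 1) scale in replicates 1, 2 and 3 (1.85 ± 1.32). Insig2 was highest in replicate 3, and the difference was 2.61 without that library.

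Srebf2, whose product mainly drives cholesterol enzymes, had 159, 455 and 246 counts (34.8 ± 15.5 CPM; SD, n = 3). Srebf1, whose product mainly drives fatty acid enzymes, had 88, 59 and 66 counts (8.94 ± 2.51 CPM). Srebf2 was higher in 3 of 3 libraries, by 1.12 ± 0.77 on the log2(RPKM + 1) scale, and by 0.73 without replicate 2. Scap had 27, 117 and 100 counts (9.90 ± 5.48 CPM), lowest in replicate 1. The exons of Scap overlap a gene model on the other strand over 985 bases.

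Receptors for lipoprotein uptake were well represented. Lrp1 (ENSMUSG00000040249.15; mm10 chr10:127538161-127621148, minus strand) encodes a large endocytic receptor for apolipoprotein E and many other ligands. It had 2249, 1545 and 2901 counts, or 282 ± 99.4 CPM (SD, n = 3), the highest CPM of the list. Lrp8, a receptor for apolipoprotein E and reelin, had 388, 888 and 839 counts (86.6 ± 30.7 CPM). Per length the 2 receptors were closer, at 16.8, 9.90 and 21.01 RPKM for Lrp1 and 4.89, 9.59 and 10.2 RPKM for Lrp8. Lrp1 exceeded Lrp8 by 0.87 ± 0.78 on the log2(RPKM + 1) scale, with almost no difference in replicate 2 (0.04), and by 1.70 without scaling by length. It was 0.51 without replicate 1.

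Of the 2 genes that move cholesterol out of lysosomes, Npc1 was far higher than Npc2. Npc1, the membrane protein, had 741, 863 and 655 counts, or 93.4 ± 8.07 CPM (SD, n = 3), with a coefficient of variation (CV) of 8.64%. Npc2, the soluble protein that hands cholesterol to it, had 35, 45 and 17 counts (3.97 ± 1.57 CPM). Npc1 exceeded Npc2 by 2.43 ± 0.14 on the log2(RPKM + 1) scale in 3 of 3 libraries. On that scale the SD was below the 0.35 of Fdft1 minus Fdps, but above it with a pseudocount of 0.1 (0.45 against 0.38) and without length (0.39 against 0.37). The size depended on the scale, 3.12 with the length of the longest coding transcript and 4.30 without any length, while the direction did not. The annotated exons of Npc1 overlap 601 bases of genes on the other strand.

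**Figure D2:**
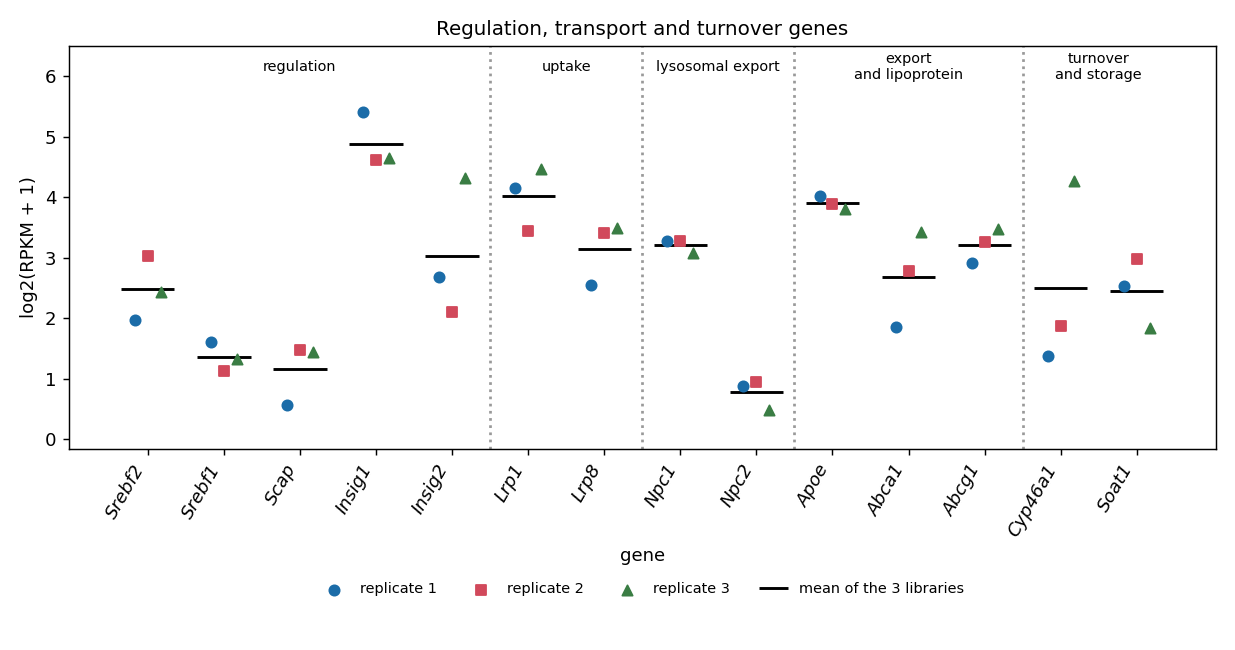
Levels of the 14 genes of regulation, uptake, lysosomal export, release, turnover and storage, as log2(RPKM + 1), with 1 symbol per library and a bar at the mean of the 3 libraries. Apoe and Npc1 have closely placed points, while Cyp46a1 and Insig2 are highest in replicate 3.

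Genes known from glial release of cholesterol were counted in every library. Apoe (ENSMUSG00000002985.16; mm10 chr7:19696109-19699188, minus strand) encodes the apolipoprotein of brain lipoproteins. It had 246, 261 and 217 counts, or 30.01 ± 2.38 CPM (SD, n = 3), with a CV of 7.95%, the lowest of the list. Abca1, which loads lipid onto apolipoprotein E, had 204, 536 and 787 counts (62.9 ± 37.0 CPM), and Abcg1, which passes further cholesterol to such particles, had 363, 552 and 573 (61.4 ± 12.8 CPM). Abca1 was lowest in replicate 1 and highest in replicate 3, as was the sum of astrocyte markers given above. The sum of granule cell markers had the same order (3116, 3568 and 3642 CPM). Of the 10 astrocyte markers, 3 had that order (Slc1a3, Aldh1l1 and Aqp4), and Apoe had the opposite one. It was also the order of 3 of 6 granule cell, 3 of 6 Purkinje cell, 2 of 12 pan-neuronal and 1 of 10 oligodendrocyte markers. The part of RNA from any of these cell types in this was not tested. Abca1 lay below Abcg1 by -1.07, -0.48 and -0.04 on the log2(RPKM + 1) scale (-0.53 ± 0.52), and that difference was -0.26 without replicate 1.

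Apoe lay within the range of the astrocyte markers and below their median. Its RPKM of 15.2, 13.9 and 13.02 was under the median of the 10 astrocyte and Bergmann glia markers by a log2 difference of -1.14 ± 0.45 (SD, n = 3), with 5, 6 and 6 of the 10 above it. Abca1 lay further below, by -2.36 ± 0.46. Of these markers, Slc1a2, the astrocyte glutamate transporter, was at 1342 ± 169 CPM, whereas Aldh1l1 was at 5.20 ± 2.33 CPM and Gja1 at 14.7 ± 6.85 CPM. Astrocyte markers themselves thus spanned levels from below Apoe to far above it.

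The neuronal turnover enzyme was low in 2 libraries and high in the other. Cyp46a1 (ENSMUSG00000021259.5; mm10 chr12:108334381-108362234, plus strand) encodes the enzyme that hydroxylates cholesterol for removal from the brain. It had 40, 77 and 470 counts, or 5.30, 8.74 and 60.3 CPM (24.8 ± 30.8 CPM; SD, n = 3). Without replicate 3 its mean was 6.95 CPM. Soat1, which esterifies cholesterol for storage, had 357, 597 and 197 counts (46.8 ± 21.2 CPM) and was lowest in replicate 3. Cyp46a1 was at 1.61, 2.66 and 18.3 RPKM, under all 12 pan-neuronal markers in every library, and below their median by a log2 difference of -3.43 ± 1.53. The summed pan-neuronal level was 26493, 24585 and 18701 CPM in replicates 1, 2 and 3, lowest in the library where Cyp46a1 was highest, but the median of the 12 was flat at 5.94 ± 0.02 on the log2(RPKM + 1) scale. Of the 12, 3 were highest in replicate 1, 5 in replicate 2 and 4 in replicate 3. The sum of the Purkinje cell markers was 6011, 7960 and 7584 CPM. The part of either cell type was not tested.

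Cyp46a1 could not be placed above or below the glial members Apoe and Abca1, or the storage gene Soat1, across libraries. Cyp46a1 minus Apoe was -2.64, -2.02 and 0.46 on the log2(RPKM + 1) scale (-1.40 ± 1.64; SD, n = 3; exact two-sided sign-flip permutation p = 0.5), and it ranged from -2.32 without replicate 3 to -0.78 without replicate 1. Cyp46a1 minus Abca1 was -0.47, -0.91 and 0.85 (-0.18 ± 0.91; exact permutation p = 0.75), from -0.69 without replicate 3 to 0.19 without replicate 2. Cyp46a1 minus Soat1 was -1.16, -1.11 and 2.43 (0.05 ± 2.06; exact permutation p = 1), from -1.13 without replicate 3 to 0.66 without replicate 1. In all 3 the SD exceeded the mean, and replicate 3 alone had Cyp46a1 higher.

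**Figure D3:**
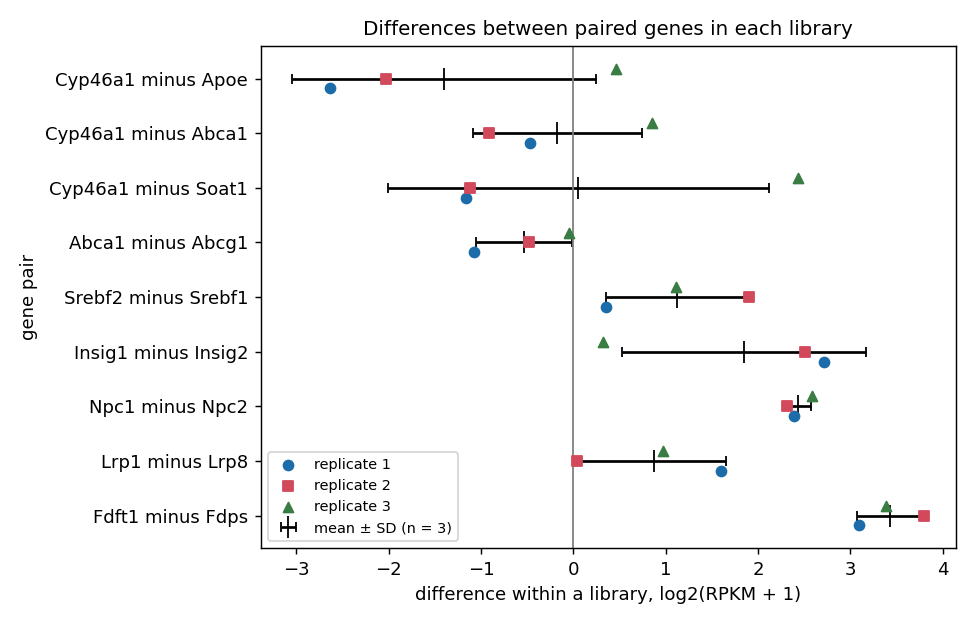
Differences between the genes of 9 pairs within each library on the log2(RPKM + 1) scale, with 1 symbol per library and the mean ± SD as a bar with whiskers (n = 3). Fdft1 minus Fdps and Npc1 minus Npc2 lie well to the right of 0 with little spread, while the 3 differences with Cyp46a1 cross 0.

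Of the 9 gene pairs, 6 had the same sign in all 3 libraries: Fdft1 over Fdps, Npc1 over Npc2, Insig1 over Insig2, Srebf2 over Srebf1, Lrp1 over Lrp8 and Abcg1 over Abca1. For each of them an exact permutation test by sign flips (two-sided) gave p = 0.25 (0.375 after Benjamini-Hochberg adjustment over the 9 pairs), the smallest p that 3 libraries allow, so none can pass a threshold of 0.05 with this test. The mean was more than 3 times its SD for Fdft1 over Fdps and Npc1 over Npc2. With the length of the longest coding transcript, Lrp8 was above Lrp1 in replicate 2 (15.2 against 11.8 RPKM). Without length scaling, Abca1 was above Abcg1 in replicate 3 (101 against 73.5 CPM). In these 2 pairs the shared sign thus depended on the length used. Ordered by mean RPKM, the 31 genes ran from Insig1 and Fdft1 through Hmgcs1, Lrp1 and Apoe down to Npc2, Dhcr7 and Tm7sf2. In each of the 30 neighbouring pairs of that order the ranges over the 3 libraries overlapped. The 10 highest genes by RPKM in each library had 5 in common, Apoe, Fdft1, Hmgcs1, Insig1 and Lrp1.

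Spread between libraries was large for most of these genes, as it was for most genes. A gene entered the test if 2 libraries held 10 or more of its counts, which 27 of the 31 genes passed; Mvk, Mvd, Tm7sf2 and Ebp did not. Beyond Poisson counting error (chi-square test on the counts, Benjamini-Hochberg adjusted p under 0.05 over all genes tested), 25 of the 27 varied, beside 96.5% of the 11168 genes tested. The 2 that did not were Fdps (adjusted p = 0.671) and Apoe (adjusted p = 0.238). Against genes of their own level, by edgeR's quasi-likelihood dispersion over its trend, 0 of the 27 stood out at an adjusted p under 0.05, and 0 of all 11168 genes did (0%). At an unadjusted p under 0.05 the counts were 0 of 27 members and 477 of all genes, and with limma they were 1 of 27 and 521, with 0 calls after adjustment. The member counted by limma was Hsd17b7 (unadjusted p = 0.0318).

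Of the 30 members with a mean of 1 to 300 CPM, 14 had a CV above the median of the tested genes of their level; Mvk, Mvd and Ebp are among the 30, although they did not pass the count filter that those genes passed. Among the 14 members with a mean of 30 to 100 CPM the median CV was 38.5%, beside 46.5% for 2965 genes of that level, and 4 of the 14 were above the latter. Among the 8 members of 3 to 10 CPM it was 53.4%, beside 85.8% for genes of that level, with 3 of the 8 above. At 10 to 30 CPM, 3 of 4 members were above (median 82.1%, beside 69.8%), at 1 to 3 CPM 3 of 3 were (107%, beside 87.4%), and at 100 to 300 CPM Lrp1, the one member, was (35.3%, beside 29.6%). Insig2 (CV 92.0%), Hsd17b7 (67.1%), Cyp51 (69.8%) and Abca1 (58.8%) were the 4 more variable than the typical gene of 30 to 100 CPM. Cyp46a1, at a CV of 124%, was more variable than the upper quartile (95.0%) of the genes of 10 to 30 CPM.

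**Figure D4:**
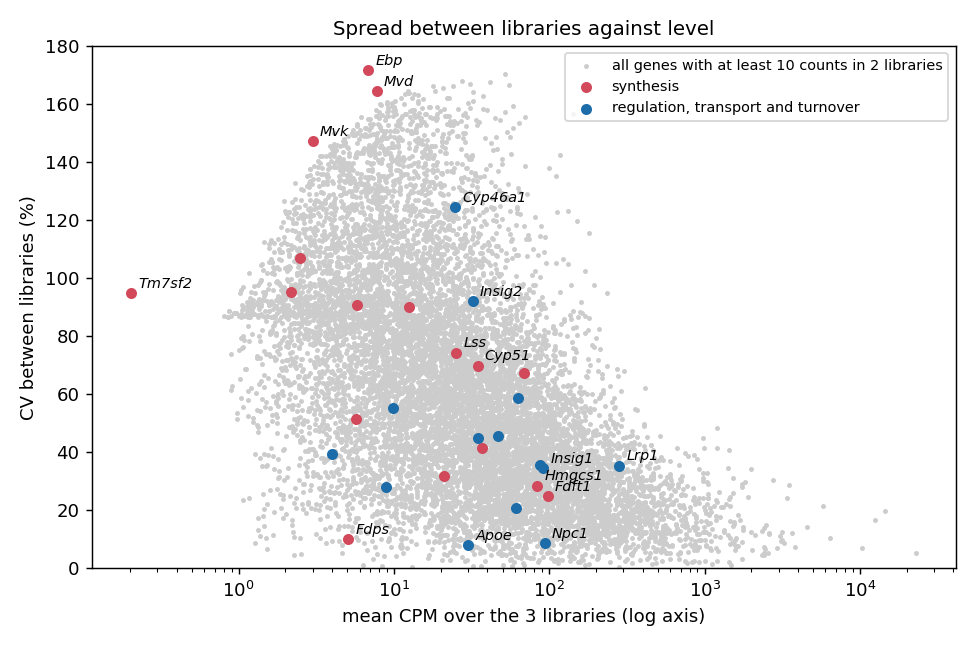
CV between the 3 libraries against mean CPM (log axis) for the 31 members and, in grey, the 11168 genes that reached 10 counts in 2 libraries. Apoe and Npc1 lie at the lower edge of the cloud, and Mvk, Mvd and Ebp, which did not pass that count filter, lie at the top with Cyp46a1 to their right.

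Counts that were 0 in 1 library and high in another were seen among the synthesis genes. Mvk, Mvd and Ebp had 0 counts in a library and at least 50 in another, 3 of the 31 members, where 7.01% of all genes with a count did so. The library at 0 was replicate 3 for Mvk, replicate 1 for Mvd and replicate 2 for Ebp. These means rest on 1 library each: without replicate 2 the mean of Mvk was 0.464 CPM, without replicate 3 that of Mvd was 0.394 CPM, and without replicate 1 that of Ebp was 0.0648 CPM. All 3 have coding transcripts under 2000 bases. Leaving out a library moved the mean CPM of 11 members by more than 1.5 times, these 3 and Pmvk, Idi1, Lss, Tm7sf2, Sc5d, Dhcr7, Insig2 and Cyp46a1.

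Short transcripts were the least completely counted. Of the 7 members whose longest coding transcript is under 2000 bases (Mvk, Pmvk, Mvd, Fdps, Tm7sf2, Ebp and Apoe), 3 reached 3 counts in every library and Apoe alone reached 10 CPM. Of the 12 members with 2000 to 4000 bases, 11 reached 3 counts in every library, and of the 12 longer ones all 12 did. Among all genes with a count, the shares with at least 3 counts in every library were 54.5%, 67.6% and 84.4% in these length classes. Of the 7 short members, 6 are synthesis genes. Within the class of 2000 to 4000 bases, 5 of 8 synthesis genes and 3 of 4 other members had at least 10 CPM, and among the longer transcripts 3 of 3 and 7 of 9 did. Among all genes with a count, the shares at 10 CPM or more were 35.9%, 53.1% and 75.1% from the shortest to the longest class.

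Most of the tested synthesis genes had their lowest value in replicate 1. Of the 13 synthesis genes that passed the count filter, 10 had their lowest CPM in replicate 1, 2 in replicate 2 and 1 in replicate 3, while 36.2%, 32.2% and 31.6% of the 11168 genes had theirs there. Fdps is among the 10, although it was almost level in replicates 1 and 2 (4.766 and 4.767 CPM). The median deviation of these 13 from their own mean was -0.64 in replicate 1, 0.23 in replicate 2 and 0.28 in replicate 3 on the log2(CPM + 1) scale, beside 0.02, 0.03 and 0.03 for all genes. Hmgcs1, Sqle and Lss were highest in replicate 1, as was Insig1 among the regulators. Of the 14 members outside synthesis, 6 were lowest in replicate 1. Replicate 1 also had the largest share of reads outside annotated genes (50.2%, against 44.1% and 44.7%), and the part of this in the pattern was not tested.

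**Figure D5:**
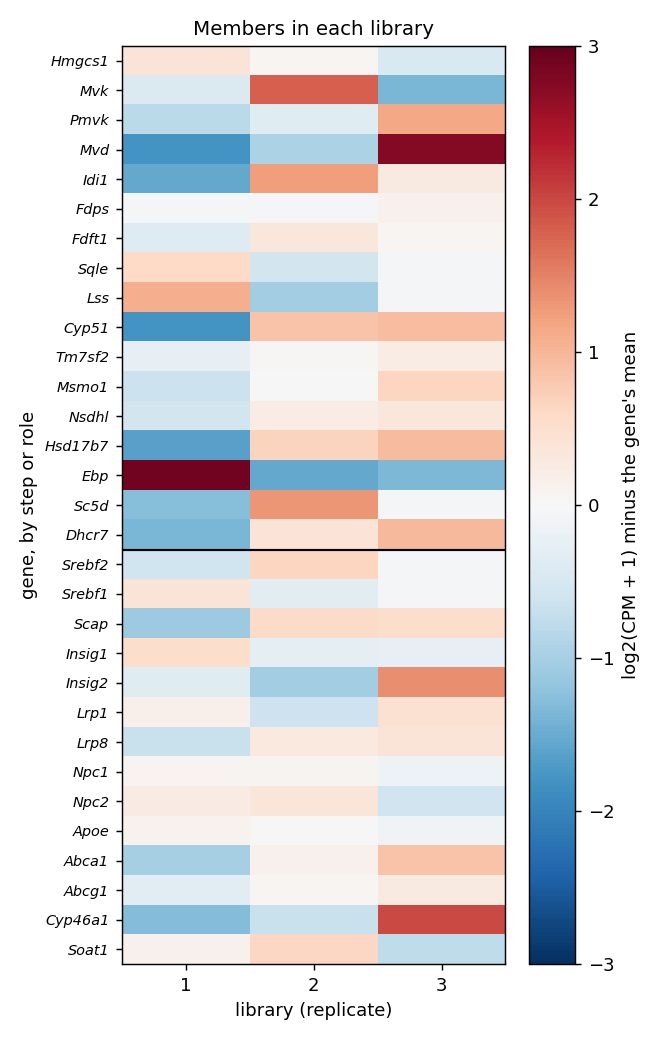
Each member's log2(CPM + 1) in each library minus its mean over the 3 libraries, with synthesis genes above the black line. Most synthesis genes are blue (below their mean) in replicate 1, and Ebp, Lss, Sqle and Hmgcs1 are red there.

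Other genes of sterol handling, a further list of 56 picked by function, give the surroundings of these levels. Of the 56, 37 had at least 10 CPM, 45 reached 3 counts in each library and 2 had none in any. Among genes with a count, 50.9% had at least 10 CPM and 63.7% reached 3 counts in every library. Of all gene rows, 25.1% and 31.5% did. Varying beyond counting error were 48 of the 49 that passed the count filter, beside 96.5% of the 11168 genes tested. By the quasi-likelihood test 0 of the 49 stood out, as did 0 of all genes. At an unadjusted p under 0.05 it was 0 of the 49 and 477 of all genes. The genes were ranked by mean RPKM within each group.

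In synthesis and its side branches, 9 of 10 genes had at least 10 CPM, led by Acat1 (29.7 ± 17.4 RPKM; SD, n = 3), a thiolase that makes acetoacetyl-CoA in mitochondria, Ggps1 (23.9 ± 7.004 RPKM), which makes geranylgeranyl diphosphate from farnesyl diphosphate, and Erlin2 (16.4 ± 14.2 RPKM). Lowest were Pgrmc1, Erlin1 and Tmem97, at 9.36 ± 3.33, 3.74 ± 3.17 and 3.60 ± 4.82 RPKM. Among 10 genes of sterol sensing, 4 had at least 10 CPM. Mbtps2, a protease that frees the SREBP proteins, was at 5.08 ± 1.02 RPKM and Rnf139 at 4.09 ± 0.71 RPKM, both among the 3 highest. Mylip and Nr1h3 were among the 3 lowest, with 42, 34 and 13 counts and 16, 6 and 14 counts.

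Of 8 genes of uptake and the lysosome, Sorl1 (23.8 ± 2.10 RPKM; SD, n = 3) and Vldlr (12.7 ± 2.29 RPKM), both receptors of the same family as Lrp1 and Lrp8, were the highest, followed by Nceh1 at 52, 770 and 70 counts. Scarb1, Scarb2 and Stard3 were the lowest. Of 14 genes that move sterols between membranes, 11 had at least 10 CPM. Gramd1b, which carries cholesterol from the plasma membrane to the endoplasmic reticulum, was at 30.4 ± 4.28 RPKM, and the oxysterol-binding protein relatives Osbpl6 and Osbpl1a were at 30.4 ± 3.22 and 21.7 ± 4.69 RPKM. Their paralogs Gramd1a, Osbpl10 and Gramd1c were the lowest, and Gramd1c had 0, 0 and 2 counts.

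Of 8 genes of export and lipoproteins, 6 had at least 10 CPM, led by Apod (99.4 ± 34.6 RPKM; SD, n = 3), a lipocalin of glia, Lcat (38.8 ± 24.8 RPKM), which esterifies cholesterol on lipoproteins, and Abca2 (37.6 ± 13.7 RPKM), a transporter known from oligodendrocytes. Abca3, Pltp and Abca7 were the lowest. Enzymes of other oxysterol routes and a second storage enzyme were scarce, with 2 of 6 genes at 10 CPM or more. Cyp39a1, which acts on the product of Cyp46a1, had 410, 97 and 14 counts, highest in replicate 1, where Cyp46a1 was lowest. Hsd3b7 had 69, 52 and 139 counts and Cyp7b1 had 0, 4 and 150. Cyp27a1 had 0, 0 and 33 counts, while Ch25h and Soat2 had none in any library.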

How the data were processed

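Reads per gene were compared in 3 immunopurified libraries of 1 group. The deposited values are raw counts per gene symbol, made by the authors with STAR 2.0.0e and HTSeq on mm10, per the submitters' processing notes. The annotation is not given in the sources used here, nor are the strand setting and the library kit. HTSeq's summary rows and a row named unknown (0 counts) were left out. Reads on no annotated feature were 50.2%, 44.1% and 44.7% of counted reads in replicates 1, 2 and 3, and reads on several genes 1.77%, 1.94% and 1.88%. Multiply aligned reads were not counted to genes.

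CPM used TMM library sizes (edgeR 4.0.16, R 4.3.3). RPKM used the union of exons in GENCODE M21 (same build), matched by symbol (23161 symbols, all 31 members). Log values have a pseudocount of 1, which understates differences of low genes. Differences within a library were tested by an exact sign-flip permutation test over 3 libraries (9 pairs); differences with list medians have no p. Spread was tested over all genes that reached 10 counts in 2 libraries, once against Poisson error (chi-square) and once by edgeR's quasi-likelihood dispersion over its trend, with Benjamini-Hochberg adjustment. Both were tested on simulated data of 11168 genes with changes in a single library. For the Poisson test the simulated counts had Poisson error only, without the spread of these libraries. In that setting it recovered 100% of 4-fold changes, which does not carry over to these data. For the quasi-likelihood test the simulated counts had the trended dispersion fitted to these data. It recovered 0% of 4-fold, 18% of 16-fold and 52% of 256-fold changes. Alternatives were DESeq2 1.42.0 size factors, limma 3.58.1, another length, no length, a pseudocount of 0.1, other filters and leaving out each library. The members and lists were chosen with earlier results of these data known. Named genes are all 31 members and the 3 highest and 3 lowest by mean RPKM in each further list; all 6 genes of the oxysterol group are named by this rule, and 2 genes of the sensing group that it covers are not reported here. No molecular identifiers are named, so reads may be copies of a molecule, and limits cover counting error only.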

Additional observations from a re-analysis of the deposited data

How the results depend on the processing

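No paired analysis was possible because the 3 libraries form 1 group. The exact sign-flip test of the 9 gene pairs cannot go below p = 0.25 and the 5 differences with list medians were not tested, so alternatives are judged by direction and by a shift beyond the SD. Among the alternatives of these differences and of the counts of members, 104 kept the direction and moved by less than the SD (counts by less than 1.5 times), 15 moved further and 5 changed sign. The sign changes, which refer to the mean over libraries and not to single libraries, all concern Cyp46a1, whose differences were within their SD. For Cyp46a1 minus Abca1 the value was 0.32 with the length of the longest coding transcript and 0.19 without replicate 2. For Cyp46a1 minus Soat1 it was -1.51 without length, -0.030 with a pseudocount of 0.1 and -1.13 without replicate 3. Leaving out each library gave -2.32 to -0.78 for Cyp46a1 minus Apoe, -0.69 to 0.19 for Cyp46a1 minus Abca1 and -1.13 to 0.66 for Cyp46a1 minus Soat1. With the length of the longest coding transcript, Npc1 minus Npc2 was 3.12, Fdft1 minus Fdps 2.53 and Abca1 minus the astrocyte median -3.003. Without length scaling, on log2(CPM + 1), the values were -1.85 for Cyp46a1 minus Abca1, 4.30 for Npc1 minus Npc2, 1.70 for Lrp1 minus Lrp8, 3.997 for Fdft1 minus Fdps, -2.12 for early minus late steps, -2.49 for synthesis minus the other members, -5.05 for Cyp46a1 minus the pan-neuronal median, -2.44 for Apoe and -1.59 for Abca1 minus the astrocyte median. With a pseudocount of 0.1, Npc1 minus Npc2 was 3.40 and Fdft1 minus Fdps 4.13. With means in place of medians, synthesis minus the other members was -0.86. Early minus late steps ranged from -1.23 to -0.33 over the libraries left out. Another library scaling moved no member's mean CPM by more than 2.15%. The number of members varying beyond counting error was 18 to 21 without 1 library and 28 without a filter, and by the quasi-likelihood test it was 0 under every filter, scaling and left-out library run, and by limma as well. The cause of these shifts was not tested beyond the scale itself.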
